A study of Mus musculus with 3 samples.

Results

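Heat shock proteins and their DnaJ partners are the chaperones that keep other proteins folded, and they were read here in single cells of the mouse left ventricle. The members are the genes whose symbols start with Hspa, Hspb, Hspd, Hspe, Hsph, Hsp90 or Dnaj, other than Hspa5 and Dnajb9. The rule found 72 of the 30360 genes in the files: 28 Dnajc, 12 Dnajb, 4 Dnaja, 12 Hspa and 3 Hsp90 genes, 8 Hspb genes, 1 each of Hspd, Hspe and Hsph, and Hspbp1 and Hspbap1. In all kept cells, 60 members had at least 1000 unique molecular identifiers (UMIs, each a counted RNA molecule) and 5 had fewer than 20. Those 5 were Dnajb7, Dnajc22, Dnajc5b, Dnajb8 and Dnajc5g, named here after their values were seen.

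The cells came from C56Bl6 mice (the strain as the labels spell it) in 3 libraries, each of 4 pooled samples and each the only library of its group. Control mice had the control diet for 10 weeks, and their labels name no vector. The mice of both other groups were given High-Fat food with L-NAME, which blocks nitric oxide synthases, for 6 weeks. The pair serves as a mouse model of heart failure in which the ejection fraction is preserved (HFpEF). Both groups also received an adeno-associated virus (AAV) for 4 weeks, which carried AAV-scramble-sh in HFpEF-scr. In HFpEF-FoxO1-sh it was AAV-FoxO1-sh, a hairpin against the transcription factor FoxO1. Diet and vector therefore differ together between HFpEF-scr and Control, and their parts cannot be told apart. The labels give no age, no sex and no promoter or target cell for the vectors. Ventricles were digested with enzymes in a heated dissociator, and the suspension was freed of cardiomyocytes on a 70 µm strainer, then of debris and red cells. A cluster led by cardiomyocyte RNA (326, 317 and 303 cells of the 3 groups) was nevertheless found and was set apart.

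The family works as a relay. DnaJ proteins (HSP40) bind an unfolded client, hand it to an HSP70 (Hspa genes) and stimulate the ATP hydrolysis that locks the client in place. Hsph1 and Hspa4 reload HSP70 with ATP, HSP90 finishes kinases and receptors, and small heat shock proteins (Hspb genes) hold clients without ATP. Separate sets serve the cytosol, the mitochondrion and the endoplasmic reticulum. On heat or oxidative stress the transcription factor Hsf1 binds heat shock elements, arrays of GAA and TTC units, and switches on the inducible members. In muscle, small heat shock proteins also guard the contractile filaments. Inducible chaperones and immediate early genes are both known to rise in tissue during warm enzymatic digestion.

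The promoters of 4 members are shown because the results turn on these genes: Hspa1a and Hspa1b, the stress-inducible HSP70 pair; Hspe1, the cap of the mitochondrial folding chamber; and Hspb1, a small heat shock protein. Each run is the 150 bases before the RefSeq start site (GRCm38), 5′ to 3′ on the gene's strand. The windows are chr17:34972157-34972306 on the minus strand for Hspa1a, chr17:34959239-34959388 on the minus strand for Hspa1b, chr1:55087998-55088147 on the plus strand for Hspe1 and chr5:135887769-135887918 on the plus strand for Hspb1. Capitals mark pairs of heat shock units, GAANNTTC or TTCNNGAA.
Hspa1a: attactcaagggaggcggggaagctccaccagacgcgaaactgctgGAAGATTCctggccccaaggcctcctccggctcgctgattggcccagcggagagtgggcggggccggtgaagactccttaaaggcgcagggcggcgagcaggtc
Hspa1b: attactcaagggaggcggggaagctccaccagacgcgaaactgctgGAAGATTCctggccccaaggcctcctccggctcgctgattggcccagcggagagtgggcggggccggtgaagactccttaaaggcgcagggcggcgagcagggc
Hspe1: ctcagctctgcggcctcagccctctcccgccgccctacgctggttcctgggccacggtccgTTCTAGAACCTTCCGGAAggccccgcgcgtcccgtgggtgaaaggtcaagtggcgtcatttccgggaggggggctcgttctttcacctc
Hspb1: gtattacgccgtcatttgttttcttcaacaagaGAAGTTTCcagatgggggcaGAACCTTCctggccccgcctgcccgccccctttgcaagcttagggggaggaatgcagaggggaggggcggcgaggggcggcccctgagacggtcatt

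The Hspa1a and Hspa1b runs differ at 1 of the 150 bases shown and at 4 of the 300 bases from 250 before to 50 after the start. Their RNAs can nevertheless be told apart in 3′ counts. None of the 90-base windows in the last 500 bases of either transcript occurs in the other, against 49.3% (Hspa1a) and 52.3% (Hspa1b) of windows over the whole transcripts. Over 300-base promoters of all genes in the RefSeq table, a pair of units in either form was found in 15.1% of 32851 promoters, and in 18 of the 75 promoters of the 58 members that matched the table (24%). The longer array of 3 units, GAANNTTCNNGAA or its reverse complement TTCNNGAANNTTC, which contains the pair, was in 0.603% of all promoters and in 6 of the 75 member promoters, those of Hspd1, Hspe1, Dnajb6 and Hsph1. In Hspe1 it was present in both forms, overlapping, with first bases at -89 and -84 from the start. Hspd1, the mitochondrial chamber itself, starts 216 bases away on the opposite strand, so that the same array lies between both start sites. A match is a description of letters and not a bound site.

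The Control library held 12757 kept cells, HFpEF-scr 14567 and HFpEF-FoxO1-sh 16854, with 96154556, 103415472 and 118407618 UMIs and medians of 6520 to 6889 UMIs per cell. The library labelled HFpEF-FoxO1-sh stood apart in quality: 31.2% of its barcodes were over the limit of 20% mitochondrial UMIs, against 53.8% and 56.9%, and the median mitochondrial share of its kept cells was 9.32%, against 12.6% in HFpEF-scr and 12.9% in Control. Foxo1 itself was at 61.1, 56.2 and 59.7 UMIs per 1e6 UMIs (CPM) over all kept cells in the library order Control, then HFpEF-scr, then HFpEF-FoxO1-sh, so it was not lower in the library labelled HFpEF-FoxO1-sh than in HFpEF-scr. In endothelial cells it was at 64.9, 79.8 and 62.0 CPM. Between 37 and 61 cell barcodes were shared by each pair of libraries, at most 0.419% of the cells of the smaller one. Clusters gave 19 classes named from marker genes (fibroblast-like, macrophage-like and so on, the suffix left out from here), 13 of which had at least 50 cells in every library and passed the marker checks. Orders of classes are given over these 13. Fibroblasts were most numerous, with 8003, 8821 and 10176 cells. All values below are CPM of UMIs summed over the cells of a class, in the order Control, HFpEF-scr, HFpEF-FoxO1-sh unless stated. Since a group is a single library, there is no replicate and no test: intervals in brackets are 95% intervals for counting error only.

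Together the members made up 0.911%, 0.915% and 1.00% of all UMIs of Control, HFpEF-scr and then HFpEF-FoxO1-sh. Of the 13 classes compared, leukocytes and endocardial cells, which line the chambers, carried the most. Monocytes gave 14643, 14990 and 15251 CPM, T cells 13576, 14991 and 15746, macrophages 11050, 11577 and 13514, and endocardial cells 11363, 11238 and 11640. Fibroblasts gave 8517, 8362 and 9232 CPM and lymphatic endothelial cells 7590, 7306 and 7431. Neutrophils, too few to be compared (45, 111 and 109 cells), were below fibroblasts in each library, at 5187, 7011 and 3797 CPM. In 7 of the 12 other classes compared, the leukocytes and endocardial cells, the lowest library was above the highest fibroblast library. The HSP70 pair accounted for a share of the gap that differed between classes. Hspa1a and Hspa1b were 47.1%, 49.4% and 49.6% of all member UMIs in monocytes, 40.0%, 44.1% and 47.0% in macrophages, 19.7%, 22.7% and 24.1% in fibroblasts, and 14.3%, 16.95% and 15.8% in lymphatic endothelial cells. Without the pair macrophages (6630, 6469 and 7160 CPM) overlapped fibroblasts (6838, 6461 and 7011). Monocytes (7743, 7588 and 7692), T cells (9222, 9439 and 9668) and smooth muscle (7776, 7722 and 7601) lay above fibroblasts.

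**Figure D1:**
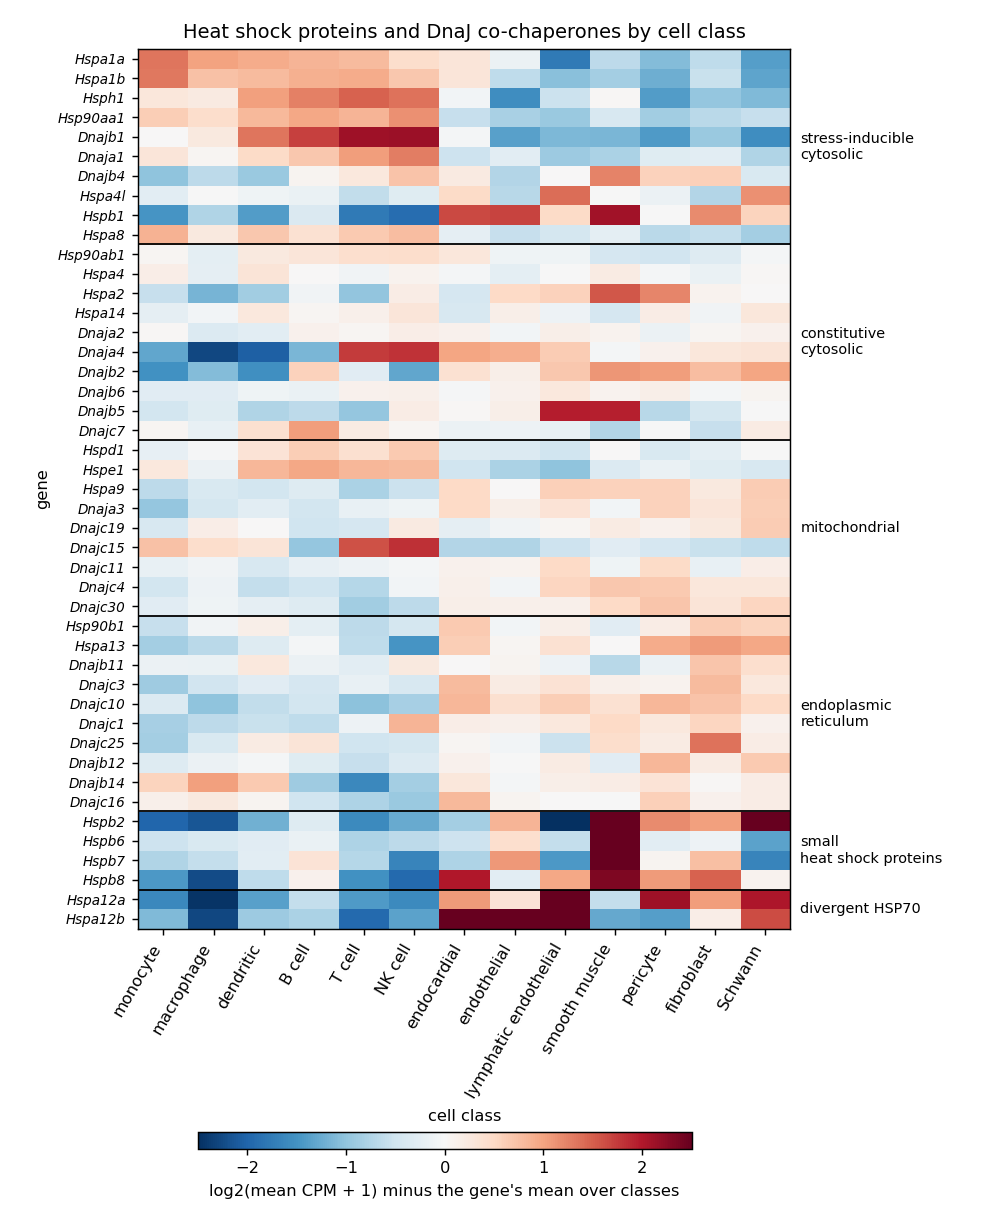
Level of 45 members with at least 1000 UMIs in 13 cell classes, as log2(mean CPM over the 3 libraries + 1) minus the gene's own mean over the classes (red higher, blue lower), with genes grouped by role. Hspa1a, Hspa1b, Hsp90aa1 and Hspa8 are red in the leukocyte columns on the left, while Dnajb4 and Hspb1, of the same role, are not and are red in smooth muscle, as are Hspb2, Hspb6, Hspb7 and Hspb8.

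Several genes of the inducible cytosolic set separated the leukocyte classes compared from the other classes compared. The set was a fixed list of 10 genes: Hspa1a, Hspa1b, Hsph1, Hsp90aa1, Dnajb1, Dnaja1, Dnajb4, Hspa4l, Hspb1 and Hspa8. It thus includes Hspa8, which is present without stress too. Hspa1b (chromosome 17, 34956436 to 34959238, minus strand, mm10) was highest in monocytes in each library, at 3800, 4240 and 4182 CPM. T cells (2490, 3312 and 3601), B cells (2349, 2816 and 3902), dendritic cells (2468, 2934 and 3137), macrophages (2282, 2680 and 3267) and natural killer (NK) cells (2371, 2805 and 2672) followed, with ranges that overlapped each other, and the highest B cell value lay above the lowest monocyte value. All of these values lay above the endocardial ones (1977, 2147 and 1929), which in turn lay above fibroblasts (942, 1125 and 1284). Schwann cells, the glia of cardiac nerves, were at 793, 652 and 531 CPM.

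Hspa1a (chromosome 17, 34969190 to 34972156, minus strand) had a similar order. It was at 3100, 3163 and 3377 CPM in monocytes, apart from macrophages at 2138, 2429 and 3087. It was at 361, 394 and 363 CPM in lymphatic endothelial cells, the lowest class and apart from the next. Fibroblasts, at 736, 776 and 937, overlapped smooth muscle, at 885, 766 and 765.

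Dnajb1 (chromosome 8, 83608193 to 83612653, plus strand), the HSP40 that drives HSP70 in the stress response, had another leader. NK cells (611, 727 and 725 CPM) and T cells (585, 665 and 778) overlapped at the top, with B cells (378, 452 and 702). Dendritic cells, at 385, 386 and 400, overlapped B cells and stood apart from macrophages, at 151, 158 and 237. Monocytes, first for Hspa1a and Hspa1b, were at only 180, 132 and 157 CPM of Dnajb1. Fibroblasts and the 5 classes below them were between 34.7 and 106 CPM and overlapped throughout.

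Hsph1, the nucleotide exchange partner of HSP70, was also highest in lymphocytes: T cells gave 184, 245 and 201 CPM and NK cells 198, 254 and 126, against 26.6, 23.2 and 24.2 in endothelial cells. Hsp90aa1, the inducible HSP90, was at 1449, 1795 and 1453 CPM in NK cells. Every value of the leukocyte classes compared was above every value of the other classes compared. Neutrophils, too few to be compared, were at 282, 556 and 240 CPM. Lymphatic endothelial cells, at 356, 394 and 373, overlapped pericytes and endothelial cells at the low end. Hspa8, the always present cytosolic HSP70, was at 1915, 1957 and 2213 CPM in monocytes, which overlapped NK cells (1785, 2061 and 1783), and ranged down to 712, 568 and 564 in Schwann cells. Dnaja1, a further HSP40 of the cytosol, was at 905, 981 and 1190 CPM in NK cells and at 222, 236 and 214 in lymphatic endothelial cells.

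**Figure D2:**
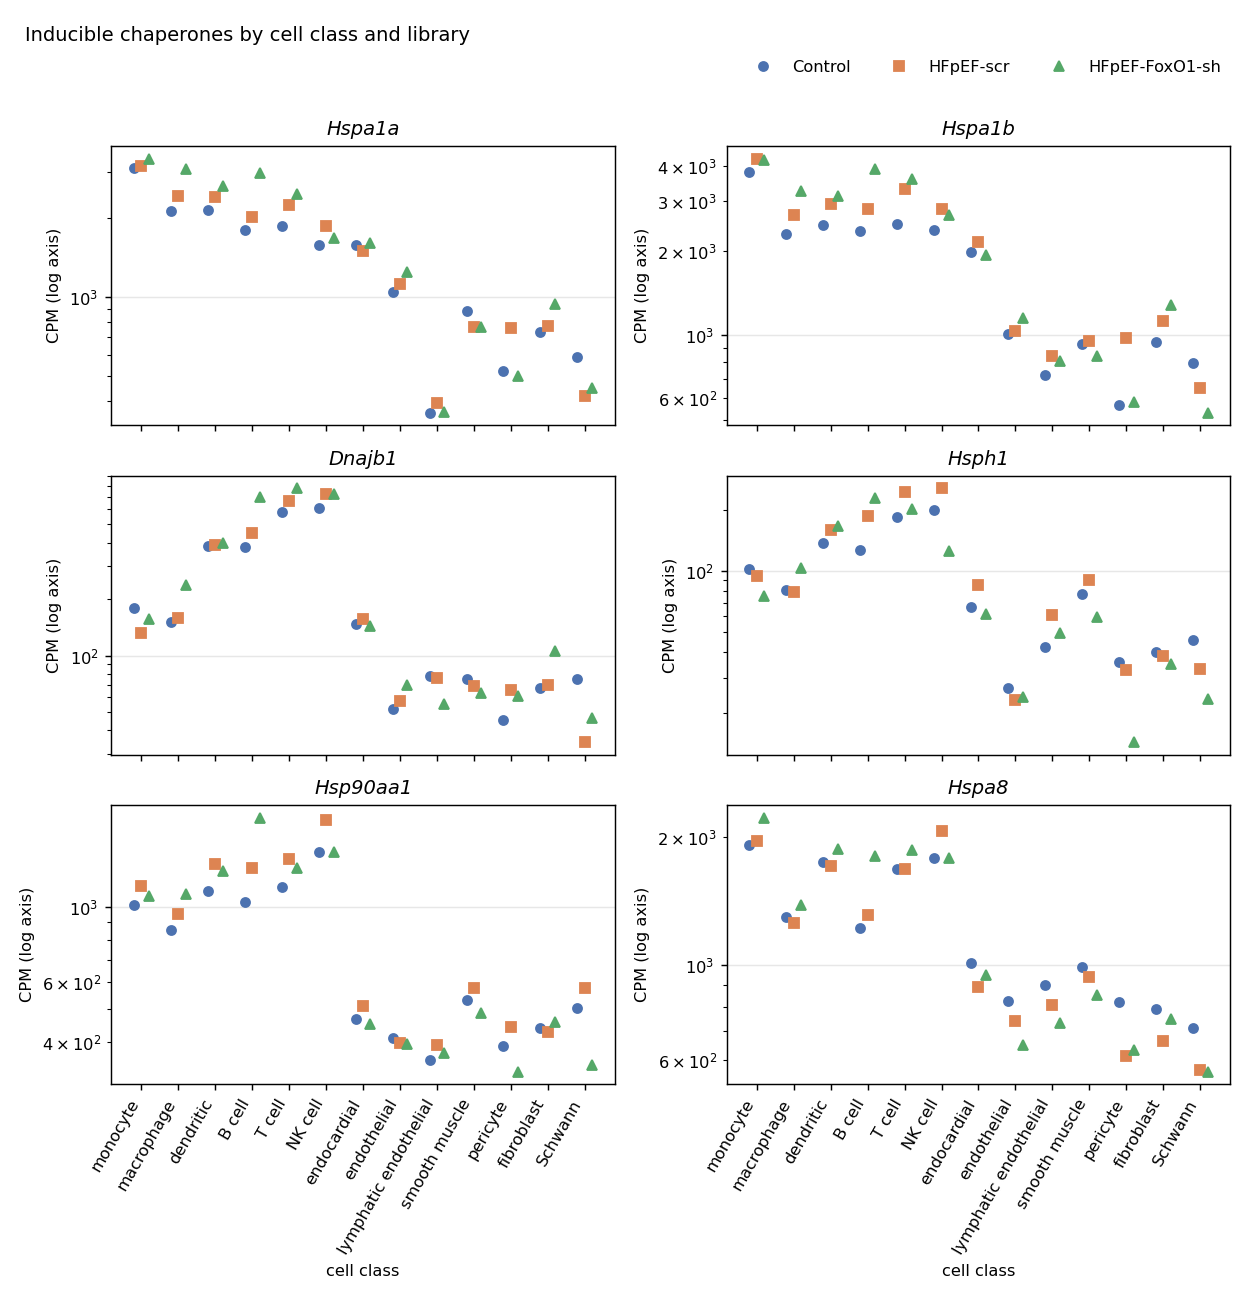
CPM (log axis) of 6 cytosolic chaperones in 13 cell classes, 1 point per library, with no error bars. Leukocyte classes on the left lie above the others for Hspa1b, Hsp90aa1 and Hspa8, and monocytes lead for Hspa1a and Hspa1b but not for Dnajb1.

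Ranked over the means of the 13 classes, the members of the fixed lists most like Hspa1b were Hspa1a (Spearman's rho 0.92), Hspa8 (0.88), Dnajb1 (0.84) and Hsph1 (0.80). Hspa9, the mitochondrial HSP70, ran the other way (-0.92), as did Hspb1 (-0.65). These are descriptions over 13 classes that share 3 libraries.

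Leukocytes were not uniform. The macrophages fell into 2 clusters. The one led by the MHC class II gene H2-Eb1 (566, 911 and 1104 cells) had Hspa1a at 2722, 2977 and 3801 CPM and Dnajb1 at 200, 198 and 298. The one led by Folr2, a gene of resident macrophages (526, 602 and 883 cells), had Hspa1a at 1613, 1703 and 2412 and Dnajb1 at 107, 106 and 180. Within each library the first was the higher for both genes. The 2 B cell clusters differed more. In the cluster with little fibroblast RNA (Dcn, a fibroblast proteoglycan, at 435, 279 and 67.2 CPM) Hspa1b was at 3341, 3960 and 4242 CPM and Dnajb1 at 558, 725 and 762. In the other, Dcn was at 11774, 10555 and 9616 CPM, Hspa1b at 1905, 2260 and 1715 and Dnajb1 at 297, 318 and 319. The first cluster held 98, 120 and 701 of the B cells and the second 98, 113 and 35. The mixture was thus near even in Control and HFpEF-scr but not in HFpEF-FoxO1-sh. Its part in the values of the whole class was not tested. The part of fibroblast RNA in the B cell values was not tested beyond this split. Erythroid markers, mostly hemoglobin RNA, summed to 35729, 56278 and 14011 CPM in the B cell class, and their part was not tested either.

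Levels also varied from cell to cell. In macrophages of Control, the inducible set took 0.129% of a cell's UMIs at the 10th percentile, 0.524% at the median and 1.75% at the 90th. Cells with at least 50 UMIs of Hspa1a and Hspa1b together were 41.4%, 47.3% and 41.6% of monocytes, 21.3%, 23.7% and 31.8% of macrophages and 2.95%, 3.32% and 6.37% of fibroblasts. At the same time 16.1%, 14.4% and 13.4% of fibroblasts had no UMI of either gene. Median depth per cell was 6883, 6550 and 6908 UMIs in fibroblasts and 6608, 5886 and 6209 in macrophages.

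Among 9 fibroblast clusters with at least 50 cells in every library, 1 stood out for the inducible set. This cluster, led by Ptx3, Cxcl5 and Mt2 (a pentraxin, a chemokine and a metallothionein; 82, 108 and 298 cells), had the highest Hspa1a, Hspa1b, Dnajb1 and Hsp90aa1 of the 9 in every library. Its Dnajb1 was at 348, 262 and 423 CPM, while the lowest cluster of each library was at 48.9, 44.9 and 62.2. Its Hspa1b was at 1510, 1981 and 2299 CPM against 666, 889 and 902. The immediate early gene Fos was at 3295, 2429 and 3487 CPM in it. The cells were clustered without the members, the heat shock pathway genes and the immediate early genes.

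Of the 13 classes compared, small heat shock proteins were highest in smooth muscle, where the 7 of them summed to 1944, 2058 and 2065 CPM, against 796, 744 and 904 in fibroblasts and 195, 195 and 228 in macrophages. Mesothelial cells of the heart surface, too few to be compared (109, 46 and 93 cells), were at 2473, 1273 and 1644 CPM. Hspb6 (chromosome 7, 30552178 to 30555443, plus strand), a regulator of relaxation in muscle, was at 190, 180 and 166 CPM in smooth muscle, while no value of the other 12 classes exceeded 6.49. Hspb7 (chromosome 4, 141420779 to 141425311, plus strand), which is known for heart and muscle and binds actin-associated proteins, was at 154, 153 and 147 CPM, against at most 6.07 elsewhere. The 3 libraries were close together for both genes. In the cluster led by cardiomyocyte RNA, which was set apart, Hspb6 was at 21.8, 10.97 and 52.5 CPM and Hspb7 at 38.6, 20.1 and 101. Dcn in that cluster was at 15808.5, 15913 and 14714 CPM, near fibroblasts at 16696, 16631 and 16645. Its values are therefore not levels of cardiomyocytes alone. A UMI of Hspb6 was present in 62.6%, 58.3% and 54.3% of smooth muscle cells (median depth 9020 to 10020 UMIs) and in 2.38%, 1.12% and 2.06% of macrophages (5886 to 6608 UMIs). With every cell thinned to 1000 UMIs the shares were 14.7%, 13.9% and 12.9% against 0.641%, 0.132% and 0.404%, with at most 1 smooth muscle cell and 7 macrophages of a library left out as too shallow. Whether the low macrophage share is expression or free RNA was not tested.

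Hspb2, a partner of the muscle chaperones, was at 178, 177 and 206 CPM in smooth muscle and at 73.4, 112 and 120 in Schwann cells, the second class. It was at 0, 0 and 0.44 CPM in lymphatic endothelial cells. Hspb8, which works with Bag3 in the removal of damaged filaments, was at 36.9, 33.5 and 31.0 CPM in smooth muscle, just above endocardial cells at 25.4, 28.1 and 26.8, but the few mesothelial cells had more, at 169, 105 and 92.8. Dnajb4, an HSP40 of the inducible set, was highest in smooth muscle, at 179, 205 and 164 CPM. The smooth muscle cells formed 2 clusters, and Hspb6 was at 263, 251 and 237 CPM in the one led by Sost, Cnn1 and Acta2 and at 108, 104 and 92.4 in the one led by Sorbs2, Myh11 and Pln.

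Hspb1 (HSP27; chromosome 5, 135887919 to 135889563, plus strand) was broader. Smooth muscle, at 1384, 1514 and 1515 CPM, stood apart from endothelial cells, at 1077, 1070 and 1148, and endocardial cells, at 1140, 961 and 1123, which overlapped. Mesothelial cells gave 2264, 1138 and 1500.5 CPM. Fibroblasts came next at 758, 705 and 864. Leukocytes were low, at 190, 190 and 222 CPM in macrophages and 48.0, 163 and 58.5 in NK cells. The middle NK value comes from a class whose Dcn was at 448, 3172 and 859 CPM and erythroid markers at 1916, 15392 and 143 CPM in the same libraries. The part of RNA from other cells in it was not tested. Hspb3 and Hspb9 had 37 and 133 UMIs in all cells together and are too low to place.

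**Figure D3:**
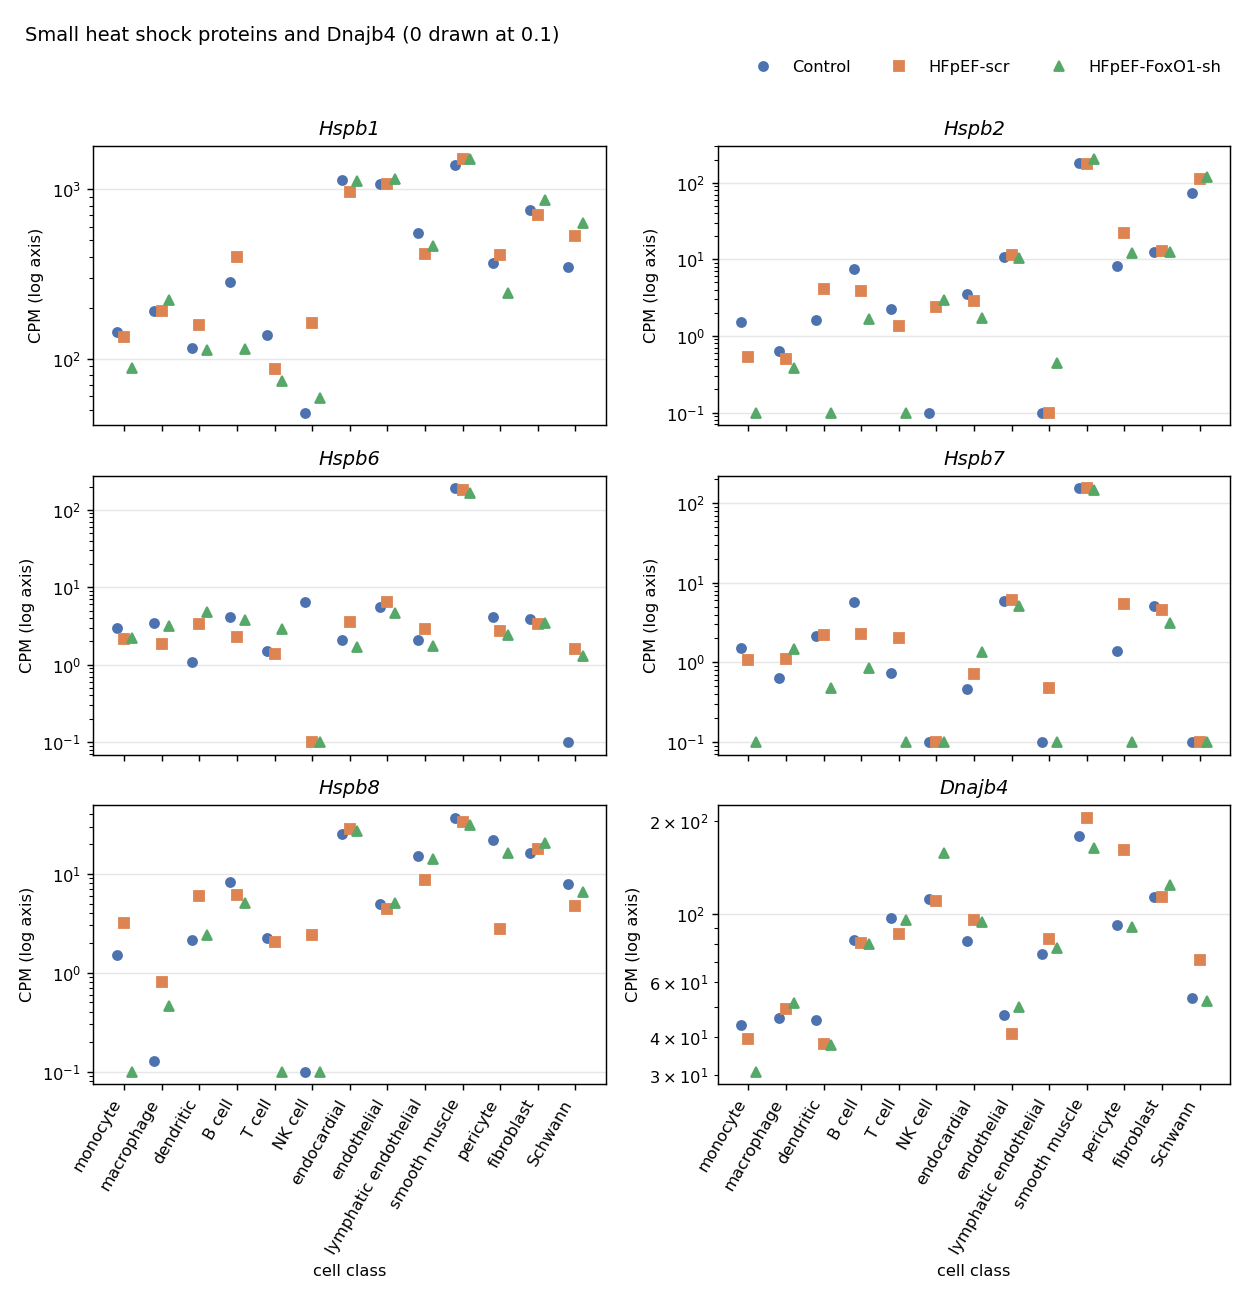
CPM (log axis) of 5 small heat shock proteins and Dnajb4 in 13 cell classes, 1 point per library, with values of 0 or under 0.1 drawn at 0.1 and no error bars. Hspb6 and Hspb7 lie at 147 to 190 CPM in smooth muscle and below 7 CPM in every other class.

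A top class whose lowest library was above every library of every other class was found for 19 of the 63 members with at least 20 UMIs in their top class (30.2%). The same held for 38.4% of 13825 genes, so the members were no more often set apart in this way than genes at large. Smooth muscle was that class for 6 members, of 9 that had their highest mean there, against 667 of 1241 genes. They were Hspb1, Hspb2, Hspb6, Hspb7, Hspb8 and Dnajb4. Among the rest, the divergent HSP70s split the vessel lining. Hspa12b (chromosome 2, 131127280 to 131146321, plus strand), known from endothelial cells, was at 77.8, 79.8 and 76.6 CPM in endothelial cells, 58.2, 64.7 and 54.1 in lymphatic endothelial cells and 40.5, 38.9 and 46.5 in endocardial cells, against 0.645, 0.406 and 0.307 in macrophages. Hspa12a instead led in lymphatic endothelial cells, at 79.7, 81.2 and 85.4 CPM, and was at 13.5, 9.25 and 12.9 in endothelial cells. Dnajb5, a constitutive HSP40, had nearly equal levels in lymphatic endothelial cells (27.8, 25.6 and 26.9) and smooth muscle (27.8, 26.8 and 24.8). It stayed at or below 11.7 CPM in the other classes.

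Of the remaining cytosolic members, Dnaja4 was highest in T and NK cells, at 32.7, 38.1 and 31.0 CPM in T cells and 28.8, 31.2 and 46.8 in NK cells. It was at 3.31, 4.57 and 3.37 in B cells and 1.42, 1.32 and 0.690 in macrophages. Dnajc7, a co-chaperone that binds both HSP70 and HSP90, was highest in B cells at 129, 132 and 156 CPM. Hspa2, an HSP70 best known from the testis, was highest in smooth muscle at 62.7, 51.3 and 67.8 CPM and overlapped pericytes. Hsp90ab1, the constitutive HSP90, ranged from 849 CPM in pericytes of HFpEF-FoxO1-sh to 1900 in B cells of the same library.

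The 10 mitochondrial members of the list summed to 1216, 1272 and 1114 CPM in NK cells and 609, 522 and 577 in endothelial cells, but they did not share 1 order of classes. Hspe1 was at 527 to 853 CPM in B, T, dendritic and NK cells, apart from monocytes at 407, 356 and 445, and lowest in lymphatic endothelial cells at 168, 175 and 154. Hspd1, its partner from the shared start region, had overlapping ranges from NK cells (218, 274 and 152) to lymphatic endothelial cells (110, 88.4 and 90.2). Hspa9, the HSP70 that pulls proteins into the matrix, was instead low in leukocytes, at 60.4, 52.1 and 53.7 CPM in macrophages against 103, 107 and 97.7 in endocardial cells. Dnajc15, a subunit linked to the import motor, was at 186, 173 and 196 CPM in NK cells and 150, 163 and 157 in T cells, while no other class exceeded 90.1. Dnajc19, its relative, was highest in Schwann cells at 111, 134 and 134 CPM.

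As a sum, the endoplasmic reticulum set was higher in fibroblasts, which secrete the matrix, than in leukocytes, but fibroblasts were not alone in this. The 10 genes of the list summed to 1509, 1539 and 1618 CPM in fibroblasts and to at most 1082 in any library of any leukocyte class. Endocardial cells gave 1371, 1386 and 1676 CPM and Schwann cells 1265, 1442 and 1380. The few mesothelial cells were above fibroblasts in every library, at 1804, 1924 and 2310. Hsp90b1, the HSP90 of that compartment, was at 793, 861 and 896 CPM in fibroblasts and 772, 792 and 1024 in endocardial cells, and at 402, 358 and 275 in T cells. Dnajc3, which also restrains the stress kinase PERK, was at 225, 196 and 218 CPM in fibroblasts against 94.1, 83.3 and 84.9 in macrophages. Dnajc10, a disulfide reductase that works in degradation, was at 108, 109 and 111 CPM against 30.2, 34.0 and 33.3. Dnajc25 stood apart in fibroblasts, at 52.2, 53.8 and 56.0 CPM. Dnajb14 went the other way in macrophages, at 97.4, 90.7 and 91.0 CPM against 47.7, 46.1 and 44.8 in fibroblasts.

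The first comparison asked what High-Fat food, L-NAME and the scrambled vector together changed. Members past a rule were counted over all kept cells and in 4 classes: fibroblasts, macrophages, endothelial and endocardial cells. A member was counted where CPM differed by at least 1.5-fold with an interval excluding 1 and at least 20 UMIs in both libraries together. Smaller classes, whose counts are not given here, also held members past the rule in both directions. Among them were Dnajb2 (ratio 0.278) and Dnajb4 (1.75) in pericytes, with 59 cells in HFpEF-scr. In Schwann cells they included Dnajb1 (0.460) and Hspb1 (1.53). Over all kept cells, 0 of the 66 members measured were higher and 0 lower in HFpEF-scr than in Control, while 2.49% of 16827 genes were higher and 3.22% lower. The summed members were at 9155 against 9112 CPM (ratio 1.00 [1.00 to 1.01]). Without Hspa1a and Hspa1b the ratio was 0.951 [0.948 to 0.955].

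In fibroblasts 0 of 64 members were higher and 0 lower, beside 1.66% and 2.02% of all genes, and the median log2 ratio of the members was -0.05, against -0.01 for all genes. Within this narrow range single genes took different directions. Hspa1b was at 1125 against 942 CPM (1.19 [1.18 to 1.21]). Hspa8, its constitutive relative, was at 663 against 791 (0.839 [0.827 to 0.850]). The mitochondrial list had 2 of 10 ratios above 1, where all genes had 45.9%, and the list of other heat shock pathway genes (Hsf factors, Bag proteins, HSP90 co-chaperones, the TRiC chaperonin and others) 7 of 40. Among the latter Fkbp4, an HSP90 partner, was at 51.4 against 68.6 CPM (0.750 [0.715 to 0.786]), and 0 of the 40 were past the rule.

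In macrophages 1 of 58 members was higher and 2 were lower, beside 1.97% and 2.07% of all genes. Hspa4l, an exchange factor for HSP70, was lower in HFpEF-scr at 18.4 CPM against 29.5 in Control (0.621 [0.509 to 0.758]), and HFpEF-FoxO1-sh was at 20.0. The other calls rest on few UMIs: Hspa1l had 31 against 11 (2.22 [1.08 to 4.89]) and Hspb6, with its low macrophage share, 18 against 27 (0.524 [0.272 to 0.987]). The summed inducible set was at 8216 against 7483 CPM (1.10 [1.09 to 1.11]), with Hspa1a at 1.14-fold [1.11 to 1.16] and Hspa1b at 1.17-fold [1.15 to 1.20]. The size of these differences lies below the rule.

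In endothelial cells 0 of 61 members were higher and 0 lower, beside 1.59% and 3.45% of all genes. In endocardial cells 0 of 58 were higher and 2 lower, beside 2.56% and 2.44%. Those were Dnajc25, at 15.1 against 25.2 CPM (0.601 [0.411 to 0.866]), and Hspbap1, with 8 against 28 UMIs (0.442 [0.174 to 0.995]). The immediate early genes behaved otherwise in these classes: 5 of 21 were higher in each and 0 lower, Egr1 at 540 against 265 CPM in endocardial cells (2.03 [1.88 to 2.20]).

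Over the 13 classes, Hspa1b was higher in HFpEF-scr than in Control in 12, Hsp90aa1 in 11, Hspa1a in 10, Dnajb1 in 9 and Hspa8 in 4. These counts compare 2 libraries again and again and are not 13 observations. The largest Hspa1b ratio was that of pericytes, the cells that wrap capillaries, at 974 against 564 CPM (1.73 [1.495 to 2.00]), with only 59 cells in HFpEF-scr. Erythroid markers of the pericytes were at 48537 against 31670 CPM and their part was not tested. HFpEF-FoxO1-sh was at 577 CPM there.

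The second comparison asked what differed with the hairpin against FoxO1 on the same diet. It shares the HFpEF-scr library with the first. Over all cells 1 of 67 members was higher and 0 lower, beside 2.77% and 2.85% of all genes. The 1 member was Hspb3, with 19 against 6 UMIs. The summed members were at 10022 against 9155 CPM (1.09 [1.09 to 1.10]), and 52 of the 67 ratios were above 1, where 60.4% of all genes were, with a median log2 ratio of 0.08 against 0.03 for all genes.

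In fibroblasts 1 of 64 members was higher and 0 lower, beside 1.69% and 1.86% of all genes. This was Dnajb1, at 67.4, 69.6 and 106 CPM: the Control and HFpEF-scr libraries were nearly level and HFpEF-FoxO1-sh above both (1.52 [1.46 to 1.58] over HFpEF-scr). The ratio was under the rule among cells with at most 10% mitochondrial UMIs (1.40), after thinning to 1000 UMIs per cell (1.44), with each cell classed singly (1.48) and over UMIs outside mitochondrial genes (1.47), and it was below 1 among cells with over 15% (0.8001). Hspa1a was at 937 against 776 CPM (1.21 [1.19 to 1.22]), Hspb1 at 864 against 705 (1.22 [1.21 to 1.24]) and Hspa1b at 1284 against 1125 (1.14 [1.13 to 1.15]), all under the rule. Hsph1 was at 34.9 against 38.3 CPM (0.911 [0.861 to 0.964]), the only 1 of the 10 inducible members with a ratio below 1. Ratios above 1 numbered 10 of 10 for the mitochondrial list, 8 of 10 for the constitutive list and 7 of 10 for the endoplasmic reticulum list, where 60.7% of all genes were above 1. The lower mitochondrial share of HFpEF-FoxO1-sh by itself adds 0.05 to each log2 ratio of fibroblasts. Dnajb1, Hspa1a, Hspb1 and Hsp90aa1 were each higher in HFpEF-FoxO1-sh in 9 of 9 fibroblast clusters, and Hspa1b in 7. The clusters compare the same pair of libraries again and again and are not 9 observations. How many genes at large were higher in all 9 was not counted.

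In macrophages 0 of 59 members were higher and 0 lower, beside 1.81% and 1.84% of all genes. Dnajb1 came closest, at 237 CPM in HFpEF-FoxO1-sh against 158 in HFpEF-scr (1.495 [1.41 to 1.59], just under the rule). Control was at 151. All 10 members of the inducible list, which includes the always present Hspa8, had ratios above 1. Among them were Hsph1 (1.32 [1.21 to 1.45]), Hspa1a (1.27 [1.25 to 1.29]), Dnaja1 (1.22 [1.17 to 1.27]) and Hspa1b (1.22 [1.20 to 1.24]). The inducible sum was at 9946 against 8216 CPM (1.21 [1.20 to 1.22]), of which Hspa8 made up 1382 against 1258. The endoplasmic reticulum list had 6 of 10 ratios above 1, where all genes had 58.2%.

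Endothelial cells had 1 of 61 members higher and 0 lower, beside 4.58% and 1.95% of all genes. It was Dnajc17, a DnaJ protein with a part in splicing, at 16.9 against 10.8 CPM (1.57 [1.14 to 2.15]). Endocardial cells had 2 of 57 higher and 0 lower, beside 3.3% and 1.5%. They were Hspa2, at 23.8 against 10.4 CPM and 10.0 in Control (2.27 [1.46 to 3.64]), and Dnajc25, at 23.1 against 15.1 (1.53 [1.02 to 2.30]), which thereby stood close to its Control value of 25.2. The inducible sum of endocardial cells was flat (0.996 [0.976 to 1.02]), and 3 of its 10 members had ratios above 1.

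**Figure D4:**
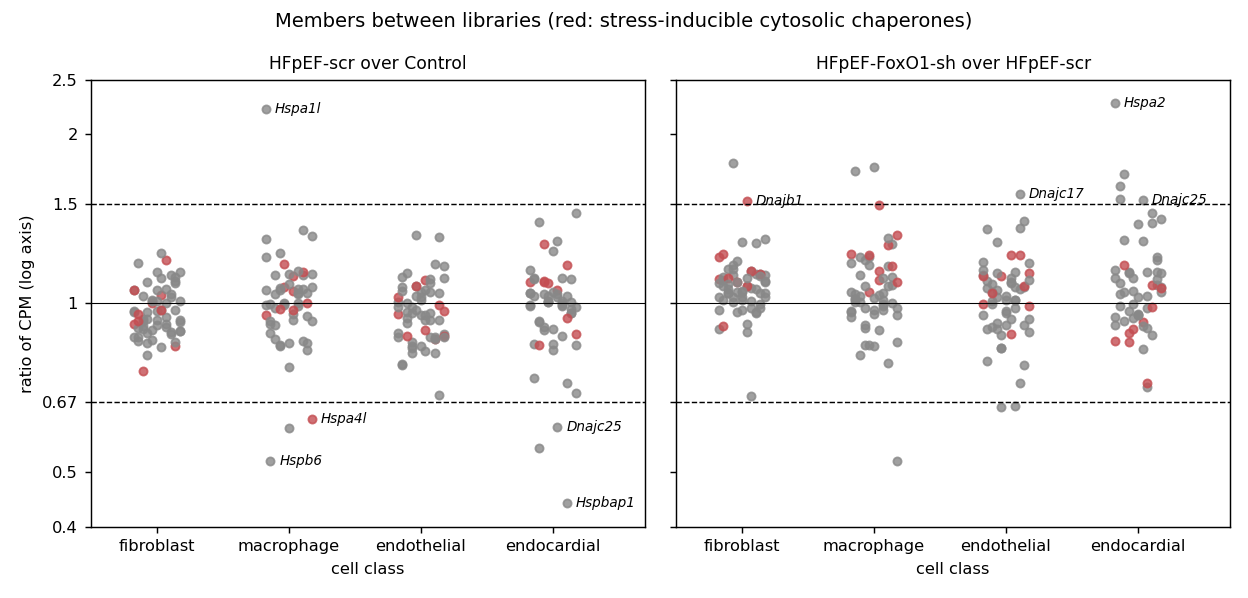
Ratio of CPM (log axis) between libraries for each measured member in 4 classes, HFpEF-scr over Control on the left and HFpEF-FoxO1-sh over HFpEF-scr on the right, 1 point per member (sideways position has no meaning), with dashed lines at 1.5-fold either way. Named points are those counted as higher or lower, and unnamed points past a line have an interval that includes 1. The red inducible members of macrophages all lie above 1 on the right.

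Other lists were read in the same comparison, and their ratios above 1 stand beside the shares of all genes given above for each class. The lower mitochondrial share of HFpEF-FoxO1-sh by itself adds 0.05 to each log2 ratio in fibroblasts and 0.06 in macrophages. By the rule, 1.69% of all genes were higher and 1.86% lower in fibroblasts, and 1.81% and 1.84% in macrophages. In fibroblasts 20 of 21 immediate early genes had ratios above 1 over HFpEF-scr and 5 were higher by the rule, among them Socs3 (125 against 57.0 CPM, 2.20 [2.11 to 2.29]) and Atf3 (73.1 against 44.0, 1.66 [1.59 to 1.74]). In macrophages it was 21 of 21, and 1 was higher by the rule. Of the 40 other heat shock pathway genes measured in fibroblasts 34 had ratios above 1. Among those higher by the rule was Ier5, a target and partner of Hsf1 (102 against 62.6 CPM, 1.64 [1.57 to 1.70]). Genes of the unfolded protein response had 18 of 20 ratios above 1 in fibroblasts and 12 of 20 in macrophages, the latter near the share of all genes there. In macrophages 4 of 12 cardiomyocyte markers were higher and 4 of 4 erythroid markers lower, with summed levels of 77.8, 68.3 and 96.7 CPM and of 1181, 1292 and 376 CPM. The part of tissue handling or of free RNA in these differences was not tested.

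The lower mitochondrial share of HFpEF-FoxO1-sh cells lies beside the same comparison, so levels were read among cells of like share. Fibroblasts with over 5% and up to 10% mitochondrial UMIs had Dnajb1 at 75.0, 79.8 and 113 CPM, and those with over 10% and up to 15% at 67.8, 68.9 and 92.6. Those with over 15% and up to 20% had 55.1, 54.0 and 43.2, so that HFpEF-FoxO1-sh was lowest among them, from 399 cells. Hspa1b of fibroblasts turned in the same way, from 965, 1170 and 1325 in the first group to 842, 980 and 769 in the last. In macrophages HFpEF-FoxO1-sh was highest in each of the 3 groups, with Dnajb1 at 138, 147 and 229 CPM, then 147, 158 and 261, then 159, 166 and 226. Cells with at most 5% mitochondrial UMIs were left out of this reading. These groups of cells were chosen after seeing the data.

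**Figure D5:**
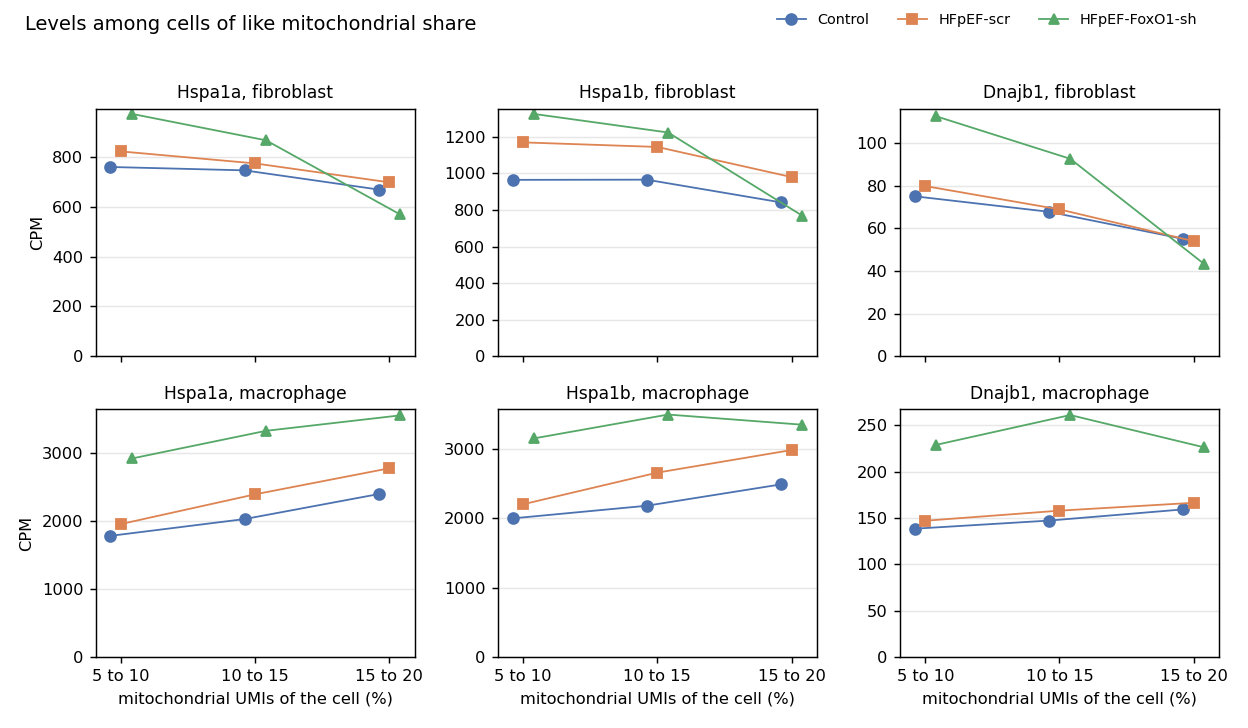
CPM of Hspa1a, Hspa1b and Dnajb1 in fibroblasts (top) and macrophages (bottom) by the mitochondrial share of the cell, 1 line per library, with no error bars and axes from 0. HFpEF-FoxO1-sh is highest in all macrophage groups and in the 2 lower groups of fibroblasts, and lowest in fibroblasts with over 15% mitochondrial UMIs.

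Over the 13 classes the direction differed. HFpEF-FoxO1-sh was above HFpEF-scr for Hspa1a in 9 classes, for Dnajb1 in 8, for Hspa1b in 6, for Hsph1 in 4 and for Hsp90aa1 in 3. In smooth muscle Hsph1 was lower, at 59.3 against 90.7 CPM (0.654 [0.545 to 0.783]), and in NK cells at 126 against 254 (0.494 [0.338 to 0.711]). In Schwann cells Hsp90aa1 was lower, at 344 against 577 (0.595 [0.506 to 0.699]). In pericytes Hspa1a was lower, at 499 against 763 (0.653 [0.566 to 0.755]). RNA of other cells was lower in the same comparison in all 4 of these classes. Fibroblast markers summed to 8441 against 16079 CPM in pericytes, 6946 against 12074 in Schwann cells, 3227 against 9090 in NK cells and 6340 against 7580 in smooth muscle. Erythroid markers summed to 16110 against 48537 CPM in pericytes, 19669 against 34767 in Schwann cells, 143 against 15392 in NK cells and 5073 against 16053 in smooth muscle. Their part in these ratios was not tested. In the B cell class members passed the rule in both directions. Hspe1 was higher, at 853 against 527 CPM (1.62 [1.48 to 1.77]), as was Dnajb1 (1.56 [1.42 to 1.71]). Hsp90b1 was lower, at 275 against 576 (0.478 [0.430 to 0.531]), and the endoplasmic reticulum list summed to 465 against 965 CPM. The B cell class as a whole held 35 fibroblast-RNA-rich cells of 736 in HFpEF-FoxO1-sh against 113 of 233 in HFpEF-scr. The part of this mixture in these ratios was not tested. In the B cell cluster with little fibroblast RNA the summed members were at 15048, 17804 and 18224 CPM, against 12197, 13564 and 17268 in the class.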

How the data were processed

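Single-cell RNA was counted in 3 libraries, 1 per group. The deposited values are UMI counts per gene and barcode, which the authors made in Cell Ranger 6.1.2 against mm10, per the submitters' processing notes. The annotation release is not given in the sources used here. No column of another sample was present.

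The analysis kept barcodes of at least 500 UMIs and 300 genes, and no more than 20% of the UMIs could be mitochondrial. Scrublet (scanpy 1.11.5, expected rate 12%, seed 0) marked 1.41%, 2.29% and 3.09% as doublets, which were removed, though unmarked ones may remain. Clustering used 2000 variable genes without the members and the heat shock pathway, immediate early and unfolded protein response lists, 30 principal components, 15 neighbours and the Leiden method at resolution 1.0, with ties split at 0.5 (igraph 0.11.9, anndata 0.12.19, scikit-learn 1.9.0). Clusters were named from at least 3 detected markers among the top 50 genes by fold, or the top 200 in a second pass. Cardiomyocyte, erythroid and platelet clusters were set apart, since their Dcn level was over 50% of that of fibroblasts in every library. Mesothelial, neutrophil and proliferating cells were too few.

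Sums of UMIs over the cells of a class in a library were expressed as CPM, with exact Poisson, Clopper-Pearson and conditional binomial 95% intervals (scipy 1.17.1, numpy 2.4.6, Python 3.11.15; plots with matplotlib 3.10.9). They cover counting error only. The scripts were tested on simulated data. Promoters were taken from RefSeq and coordinates from GENCODE, both on GRCm38. The text names members of the role lists, the 10 members of a class with the largest change past the rule, the 5 with the highest level, and of other fixed lists at most 4 genes per class with the largest change. The members and lists were chosen with earlier results of these data known. A result on 1 gene outside the members is not reported here.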

Additional observations from a re-analysis of the deposited data

Results flagged for a closer look

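Some members were past the 1.5-fold rule in opposite directions in different classes under the same comparison. How often this holds among all genes was not counted. With 1 library per group, none of these differences between classes was tested. Between HFpEF-FoxO1-sh and HFpEF-scr, Dnajc25 had ratios of 0.395 in B cells and 1.53 in endocardial cells, and Dnajc9, which binds histones, had 1.76 in B cells and 0.622 in dendritic cells. The B cell ratio of Dnajc25, a member highest in fibroblasts, rests on 25 against 35 UMIs. Dcn was at 1352 against 7190 CPM in these B cells, and the part of fibroblast RNA was not tested. Hspa9 had 0.587 in dendritic cells and 1.80 in pericytes, of which HFpEF-scr held 59. Between HFpEF-scr and Control, Hspa13 had ratios of 1.70 in B cells, 1.82 in Schwann cells and 2.67 in monocytes but 0.543 in pericytes. In that order they rest on 61 against 33, 48 against 21, 53 against 7 and 15 against 55 UMIs. Hspa4l was at 0.621 in macrophages and 1.68 in smooth muscle, where Control, HFpEF-scr and HFpEF-FoxO1-sh gave 17.7, 29.7 and 20.4 CPM. Hspb1 had 3.40 in NK cells and 1.53 in Schwann cells but 0.629 in T cells. Dcn was at 448 and 3172 CPM in NK cells and at 2886 and 1934 CPM in T cells of Control and HFpEF-scr, which is the same direction as Hspb1 in both classes, but at 3187 and 2796 CPM in Schwann cells, the opposite one. Erythroid markers summed to 1916 and 15392 CPM in NK cells, 20279 and 34767 in Schwann cells and 3746 and 5096 in T cells, where the direction is opposite to Hspb1. Their part was not tested.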

How the results depend on the processing

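Each count of members past the rule, higher or lower, was recomputed under 10 or more alternatives, and 162 of the 219 planned values of the main results stayed within 1.5 times or at the same count. Of the rest, the counts of members past the rule moved by 1 or 2, and below each is given after the reported count. In HFpEF-scr over Control, a limit of 10% mitochondrial UMIs gave 1 for 0 lower in all cells, 0 for 2 lower in endocardial cells, 2 for 0 higher and 1 for 0 lower in endothelial cells, and 0 for 1 higher and 1 for 2 lower in macrophages. A limit of 50% gave 1 for 0 higher and 1 for 2 lower in endocardial cells and 1 for 2 lower in macrophages. Thinning to 1000 UMIs gave 1 for 0 higher and 0 for 2 lower in endocardial cells, 1 for 0 higher and 2 for 0 lower in endothelial cells, and 0 for 1 higher in macrophages. Classing each cell singly gave 2 for 0 higher in endocardial cells, 1 for 0 in both directions in endothelial cells, and 0 for 1 higher and 0 for 2 lower in macrophages. Keeping doublets gave 1 for 2 lower in endocardial cells and 2 for 1 higher and 1 for 2 lower in macrophages. A minimum of 100 UMIs gave 1 for 2 lower in endocardial cells and 0 for 1 higher and 1 for 2 lower in macrophages. Resolution 2.0 gave 1 for 2 lower in macrophages.

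In HFpEF-FoxO1-sh over HFpEF-scr, a limit of 10% gave 0 for 1 higher and 1 for 0 lower in endothelial cells and in fibroblasts, and 1 for 0 higher and 2 for 0 lower in macrophages. A limit of 50% gave 0 for 1 higher in all cells, 4 for 2 higher in endocardial cells, and 0 for 1 higher and 1 for 0 lower in endothelial cells. Thinning gave 0 for 1 higher and 1 for 0 lower in all cells and in endothelial cells, 0 for 2 higher in endocardial cells and 1 for 0 higher in macrophages. Classing singly gave 1 for 2 higher and 1 for 0 lower in endocardial cells, 2 for 1 higher and 1 for 0 lower in endothelial cells, and 0 for 1 higher in fibroblasts. A minimum of 100 UMIs gave 0 for 1 higher in all cells and 1 for 2 in endocardial cells. CPM outside mitochondrial genes gave 1 for 2 higher in endocardial cells and 0 for 1 higher and 1 for 0 lower in fibroblasts. Keeping doublets gave 2 for 0 lower in endothelial cells, and resolution 2.0 gave 1 for 0 higher in macrophages. The macrophage clusters were counted alone, an alternative chosen after seeing the data: the H2-Eb1 cluster had 0 for 2 lower in the first comparison and 1 for 0 in both directions in the second, and the Folr2 cluster had 0 for 1 higher and 1 for 2 lower in the first and 2 for 0 higher in the second. The cause of these moves was not tested.

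With at most 10% mitochondrial UMIs, 3 of 5 other classes, not 7 of 12, had summed members above fibroblasts. Members with a top class standing apart then numbered 30, from fewer classes, and 9 after thinning, against 19. Over their alternatives the ratios of HFpEF-FoxO1-sh over HFpEF-scr for Dnajb1 ranged from 0.8001 to 1.53 in fibroblasts and from 1.36 to 1.70 in macrophages, both lowest among cells with over 15% and up to 20% mitochondrial UMIs, and those of Hspa2 in endocardial cells from 1.21 to 2.41. Hspa1a and Hspa1b ratios stayed under the rule in fibroblasts and macrophages in both comparisons, and above 1 except in those same fibroblasts of the second (0.815 and 0.785). The groups by mitochondrial share were chosen after seeing the data. Hspa4l in macrophages of HFpEF-scr over Control ranged from 0.570 to 0.704. The Hspa1l ratio there turned to 0.398 at a limit of 10%. Calls on fewer than 100 UMIs are limited by depth. No paired analysis was possible because each group has 1 library.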
